A study of Mus musculus with 6 samples.

Results

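The proteasome is the particle that degrades ubiquitin-tagged proteins, and its subunits are encoded by the Psma, Psmb, Psmc, Psmd and Psme genes. Members were the rows of the deposited table named Psma, Psmb, Psmc, Psmd or Psme followed by a number, without the immunoproteasome genes Psmb8, Psmb9 and Psmb10. This gave 40 of 55995 features. Psma8, a germ cell paralogue, was listed at 0 TPM in 5 libraries and at 0.15 TPM in radiotherapy replicate 3, and Psmb11, a thymus subunit, was at no more than 0.01 TPM. The other 38 averaged 1 TPM or more across all libraries and were tested. They were 7 alpha and 7 beta subunits of the 20S core, 6 ATPase and 14 non-ATPase genes of the 19S regulator, and 4 activator genes.

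RNA was sequenced from the gastrocnemius, a mainly fast-twitch muscle of the calf, of NOD/SCID/IL2Rγ-null (NSG) mice, which lack mature T, B and NK cells. All mice of both groups carried a tumour under the skin of the left flank, grown from wild-type cells of MDA-MB-231, a human breast cancer line. In the radiotherapy group (3 libraries) the tumour alone received 1 dose of 10 Gy from 6 MV X-rays, at 6 Gy per minute, when it measured about 800 mm3, and 3 days later the gastrocnemius opposite the tumour was collected. The control group (3 libraries) was not irradiated, and the labels give neither the age or sex of the mice nor a tumour size or day of collection for the controls, so a difference in those cannot be told apart from irradiation. Nothing in the labels says that libraries came from separate mice, so p-values measure only how these samples differ among themselves, which may be technical spread. The values are TPM, transcript abundance scaled for length and library size, with no read counts. The depth is therefore unknown.

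The 20S core is a barrel in which outer rings of alpha subunits gate the entrance and inner rings of beta subunits hold the proteolytic sites. The 19S regulator caps the barrel, where its non-ATPase subunits bind and deubiquitinate substrates and its ATPase ring unfolds them and feeds them in. Activators of the Psme family bind the same barrel ends without ubiquitin recognition. In skeletal muscle the ubiquitin-proteasome route degrades myofibrillar protein, and proteasome subunit mRNAs are known to rise with the muscle ubiquitin ligases Trim63 and Fbxo32 during atrophy.

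Most proteasome subunit mRNAs lay below every control library in radiotherapy replicates 1 and 2, while in radiotherapy replicate 3 they lay inside the control range or above it. The summed level of all subunits was 7940, 11664 and 6062 TPM in control replicates 1, 2 and 3, against 3310, 2986 and 10808 TPM in replicates 1, 2 and 3 of the radiotherapy group. Replicate 3 thus lay inside the control range and the other radiotherapy libraries below it. In replicate 1, 35 of the 38 subunits were below every control library, beside 63.2% of all 11938 features tested. In replicate 2 there were 36, beside 67.6% of all features. In replicate 3 there were 0, beside 30.9%, while 16 were above every control library, beside 31.5%, and 22 inside the control range.

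With the libraries taken as groups, no subunit passed the test. By limma with Benjamini-Hochberg adjustment, 0 of 38 were called lower and 0 higher, beside 0.0168% and 0.0419% of all features. At an unadjusted p under 0.05 there was 1, Psme4, as lower, beside 13.3% of all features, and 0 as higher, beside 1.18%. No subunit had all 3 radiotherapy libraries below every control (0 of 38, beside 19.3% of features), and 1, Psme1, was higher in all 3, beside 1.73%. The log2 change was below 0 for 37 of 38, beside 78.5% of all features. The median log2 change of the subunits was -0.68, and that of all features -0.36. Without radiotherapy replicate 3, 25 of 38 (65.8%) were called lower and 0 higher, beside 27.6% and 1.98% of all features, with log2 changes from -2.29 to -0.73 and adjusted p from 0.0111 to 0.0454. The median of the subunits was then -1.28 and that of all features -0.57. This fit is shown because that library differed from the other radiotherapy libraries, so its calls are no test of the groups. With any other single library left out, 0 subunits were called lower and 0 higher.

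**Figure D1:**
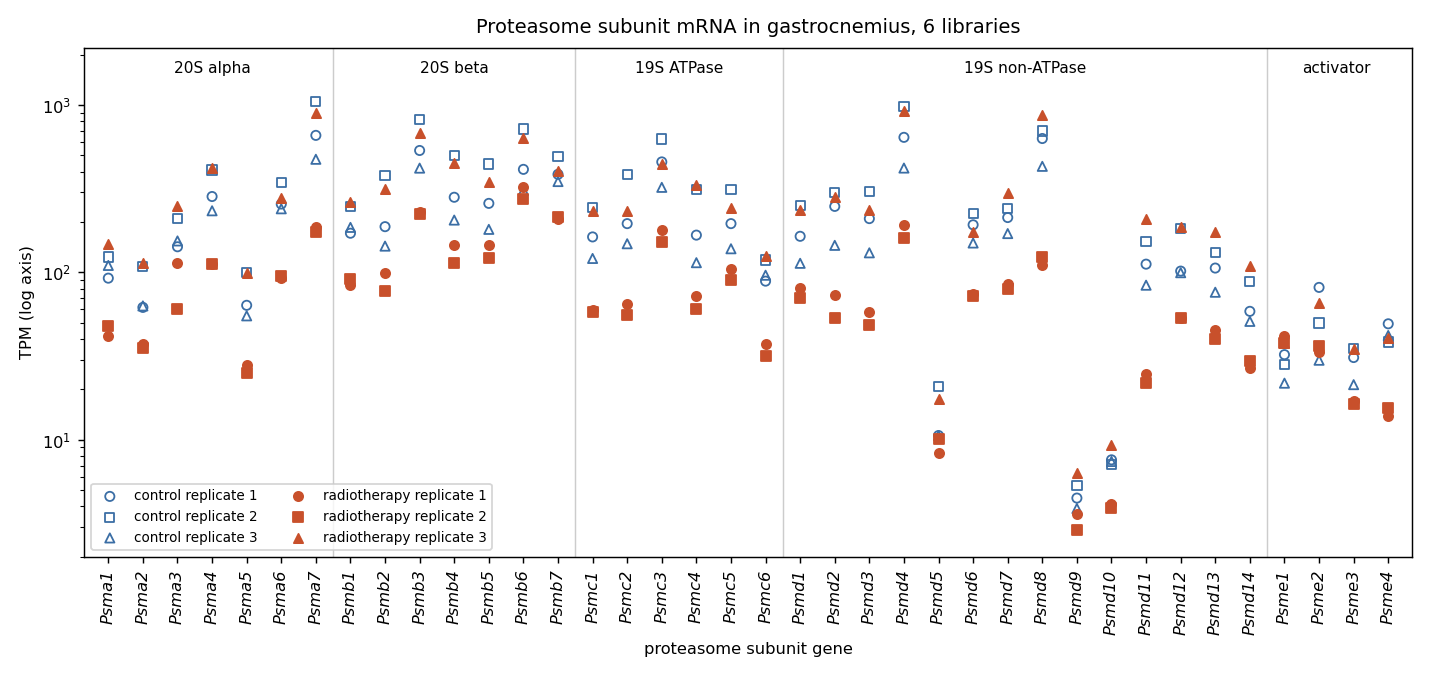
TPM (log axis) of the 38 tested subunit genes in each of the 6 libraries, with control libraries as open and radiotherapy libraries as filled symbols and 1 symbol shape per replicate number. The circles and squares of radiotherapy replicates 1 and 2 lie below all control symbols in most columns and the triangles of replicate 3 do not, while for Psme1 all 3 filled symbols lie on top.

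The control libraries differed among themselves in the same genes. Control replicate 2 was the highest of the 6 libraries for 20 of 38 subunits, beside 19.8% of all features, and radiotherapy replicate 3 for 15, beside 30%. On the scale of log2(TPM + 1) minus the control mean, the median subunit stood at -0.07, 0.45 and -0.41 in control replicates 1, 2 and 3, where the median of all features stood at 0.12, -0.05 and -0.08. In radiotherapy replicates 1, 2 and 3 the median subunit stood at -1.25, -1.36 and 0.43, and that of all features at -0.53, -0.61 and -0.01. In the radiotherapy libraries the interquartile range of the subunits was narrower than the shift of their median. It lay between -1.47 and -0.95 in replicate 1, between -1.56 and -1.09 in replicate 2 and between 0.28 and 0.53 in replicate 3. The full range was wider, from -2.37 to 0.60, from -2.31 to 0.46 and from -0.09 to 0.88.

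**Figure D2:**
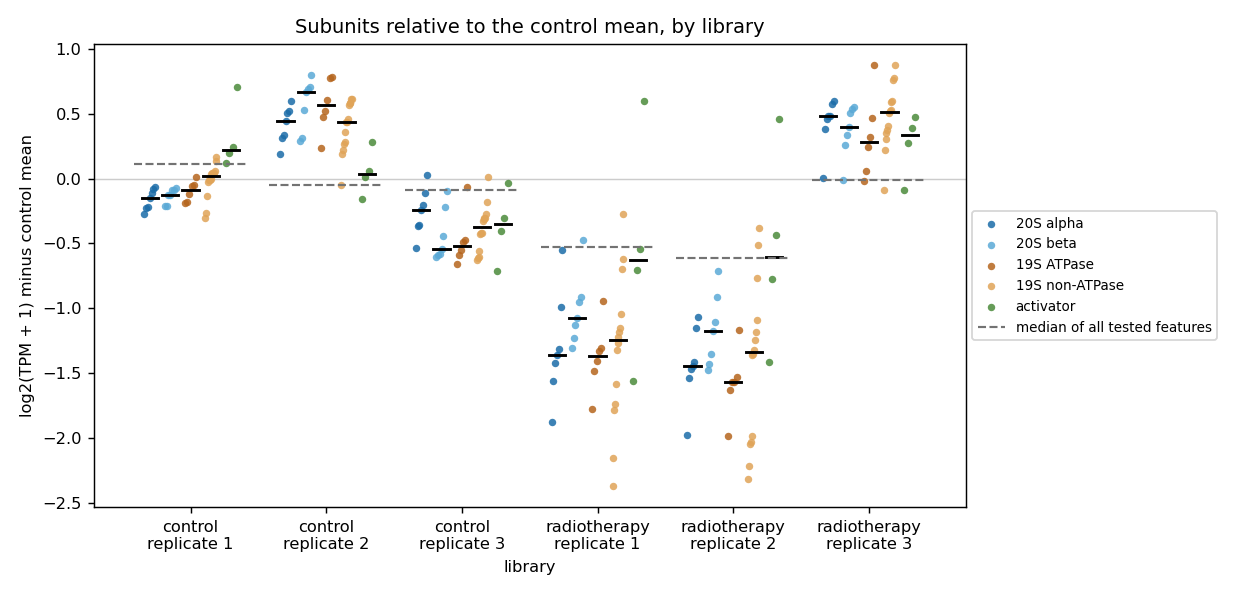
Each point is 1 subunit, as log2(TPM + 1) minus its control mean, in each library, coloured by part of the particle. Black bars are the median of each part and dashed lines the median of all tested features. The 20S and 19S parts move together from library to library, with medians below -1 in radiotherapy replicates 1 and 2. The activator median is less low there. Among the controls it is highest in replicate 1, and the medians of the other parts in replicate 2.

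Other properties also differed between radiotherapy replicate 3 and radiotherapy replicates 1 and 2. The 20 most abundant features held 37.8, 33.0 and 42.6% of the TPM in control replicates 1, 2 and 3. In radiotherapy replicates 1, 2 and 3 they held 50.5, 52.1 and 30.3%. Mitochondrial genes held 11.8, 7.07 and 13.1% in control and 14.6, 14.8 and 8.57% in radiotherapy libraries, in the same order. With median-of-ratios scaling the median of all features went from -0.36 to -0.01 and that of the subunits from -0.68 to -0.25, and 26, 29 and 1 subunits were below every control library in replicates 1, 2 and 3, beside 35.1, 35.8 and 30.6% of all features. Under that scaling 6 subunits had a change above 0, namely Psmb6, Psmd5, Psmd9, Psme1, Psme2 and Psme3. All 11 fast muscle markers were present, summing to 134747 to 155844 TPM in controls, against 204233, 207240 and 117838 TPM in replicates 1, 2 and 3 of the radiotherapy group. Replicate 3 also had the highest summed neutrophil markers (2762 TPM, against 69.3 to 171 in control and 10.4 and 17.2 in replicates 1 and 2), macrophage markers (182 TPM, against 30.9 to 91.4, and 39.5 and 58.0) and endothelial markers (154 TPM, against 66.1 to 77.2, and 48.7 and 47.3). No marker in these lists of 6, 7 and 5 genes was at 0 in every library. The summed fibro-adipogenic markers (5 genes) came to 280 to 435 TPM in controls, against 202, 219 and 175 TPM after radiotherapy, and the tendon markers (5 genes) to 8.21 to 18.7 TPM against 54.7, 41.3 and 8.79 TPM. Ordered by falling mitochondrial share, the libraries were also ordered by rising subunit sum. Control replicate 2, with the highest subunit sum, had the lowest share of the 20 most abundant features among the controls. Control replicate 3, with the lowest subunit sum of the controls, had the highest share. Control replicate 2 also had the highest fast muscle sum of the controls and their lowest macrophage and endothelial sums. The part of these properties in the subunit levels was not tested. In whole muscle, fewer cells of a type and less RNA per cell cannot be told apart.

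The alpha subunits form the gated outer rings of the core. All 7 had a log2 change below 0, with a median of -0.77 and adjusted p from 0.358 to 0.643, and all 7 were below every control library in replicates 1 and 2. Psma7, the most abundant of them, was at 658, 1043 and 473 TPM in control replicates 1, 2 and 3, against 187, 174 and 898 TPM in replicates 1, 2 and 3 of the radiotherapy group. Its group means were 725 ± 291 and 420 ± 414 TPM (SD, n = 3 per group), a log2 change of -1.15 (SE 0.67). The groups overlapped through replicate 3 alone, which exceeded control replicates 1 and 3. Psma6 was at 256, 343 and 240 TPM in controls against 92.7, 94.5 and 276 TPM after radiotherapy, with the lowest p of the alpha genes (log2 change -1.03, SE 0.47, adjusted p = 0.358 by limma). Psma4 was at 284, 408 and 233 TPM against 111, 112 and 419 TPM. Replicate 3 was the highest of the 6 libraries for Psma4, while for Psma6 control replicate 2 was. Psma5, the least abundant, was at 63.5, 100.3 and 54.9 TPM against 27.8, 24.9 and 99.0 TPM. Psma3, named after its values were seen, was the one alpha gene in which replicates 1 and 2 differed widely, at 113 and 60.5 TPM against 142, 210 and 154 TPM in control and 248 TPM in replicate 3.

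Among the beta subunits, Psmb5, Psmb6 and Psmb7 carry the chymotrypsin-like, caspase-like and trypsin-like sites that cut the substrate. The 7 beta genes had a median log2 change of -0.65, and none passed (adjusted p from 0.411 to 0.808 by limma). Psmb5 was at 258, 444 and 180.5 TPM in controls against 145, 121 and 347 TPM after radiotherapy (log2 change -0.58, SE 0.50). Psmb7 was at 385, 494 and 348 TPM in controls against 209, 214 and 402 TPM after radiotherapy (log2 change -0.62, SE 0.34). Both lay in replicates 1 and 2 below every control library and in replicate 3 inside the control range. Psmb6, at 412, 717 and 308 TPM in controls against 325, 275 and 638 TPM after radiotherapy, had the log2 change nearest 0 of the beta genes (-0.23, SE 0.44). Replicate 1 was thus above control replicate 3. Without radiotherapy replicate 3 the change of Psmb5 was -1.04 (adjusted p = 0.0885), that of Psmb6 -0.59 (0.251) and that of Psmb7 -0.93 (0.0259). Psmb6 was the most abundant of the 38 subunits in replicates 1 and 2 and at rank 4 to 7 in the other libraries. Psma7 was at rank 1 in all 3 controls and at rank 5, 4 and 2 in radiotherapy replicates 1, 2 and 3. The structural beta subunit Psmb3 was at 534, 821 and 419 TPM in controls against 230, 223 and 680 TPM after radiotherapy, and Psmb1 at 171, 247 and 185 TPM against 84.0, 91.7 and 262 TPM. In both, replicates 1 and 2 lay below every control, and for Psmb1 replicate 3 was the highest library.

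The promoters of 33 of the 40 genes were found by symbol in RefSeq's table for GRCm38.p6. They were searched on both strands, over 250 bases before and 50 after the start, for TGACNNNGC, the core of the antioxidant response element through which NFE2L1 and NFE2L2 act with small MAF proteins, and for CCAAT, the box bound by NF-Y. The first was in 6 of 33 members (18.2%) and 13.99% of 27025 genes, and the second in 13 of 33 (39.4%) and 41.1% of genes. The ETS site CCGGAAG, added after the promoters had been read, was in 12 of 33 (36.4%) and 9.93% of genes. The core of the interferon-stimulated response element, also added later, was in 4 of 33 (12.1%) and 3.99% of genes. The 4 members were Psmb3, Psmd4, Psmd9 and Psme1. No matches of different motifs overlapped in the members. The members with TGACNNNGC were Psmb5, Psmb6, Psmc6, Psmd12, Psmd9 and Psme4. The 250 bases before the start are shown for the catalytic genes Psmb5 and Psmb6, for Psmc6 and Psmd4 as ATPase and ubiquitin receptor genes of the 19S, and for Psme1 as the one member above every control in all radiotherapy libraries. Capitals mark TGACNNNGC, CCAAT or CCGGAAG on either strand, or the interferon-stimulated core.
Psmb5 (chr14:54617996-54618245, minus strand): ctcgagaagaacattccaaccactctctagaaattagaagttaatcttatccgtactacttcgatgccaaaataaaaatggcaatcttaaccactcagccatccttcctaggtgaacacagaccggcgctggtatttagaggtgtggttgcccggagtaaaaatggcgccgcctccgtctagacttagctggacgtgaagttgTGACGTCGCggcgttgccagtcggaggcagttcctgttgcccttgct
Psmb6 (chr11:70525107-70525356, plus strand): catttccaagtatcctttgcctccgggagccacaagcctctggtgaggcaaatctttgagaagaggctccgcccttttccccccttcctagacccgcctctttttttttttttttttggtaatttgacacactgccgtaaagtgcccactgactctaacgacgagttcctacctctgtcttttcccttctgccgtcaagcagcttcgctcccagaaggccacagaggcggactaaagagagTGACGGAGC
Psmc6 (chr14:45329574-45329823, plus strand): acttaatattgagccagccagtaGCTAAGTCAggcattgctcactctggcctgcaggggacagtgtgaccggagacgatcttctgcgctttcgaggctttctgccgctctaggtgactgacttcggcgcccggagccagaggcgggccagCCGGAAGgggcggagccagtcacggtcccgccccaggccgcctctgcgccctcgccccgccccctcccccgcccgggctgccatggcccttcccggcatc
Psmd4 (chr3:95042615-95042864, minus strand): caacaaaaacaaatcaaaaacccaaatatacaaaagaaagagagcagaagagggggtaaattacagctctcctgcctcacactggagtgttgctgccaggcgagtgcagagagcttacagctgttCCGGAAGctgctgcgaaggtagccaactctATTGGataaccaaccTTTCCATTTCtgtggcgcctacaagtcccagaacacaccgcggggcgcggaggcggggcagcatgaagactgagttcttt
Psme1 (chr14:55578244-55578493, plus strand): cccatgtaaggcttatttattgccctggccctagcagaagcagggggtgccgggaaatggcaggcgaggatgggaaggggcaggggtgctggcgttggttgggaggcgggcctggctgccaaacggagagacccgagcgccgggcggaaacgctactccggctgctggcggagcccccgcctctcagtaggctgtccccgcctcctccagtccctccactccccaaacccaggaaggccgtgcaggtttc
The TGACNNNGC matches began 47 bases before the start in Psmb5 and 9 bases before it in Psmb6, on the strand of the gene, and the capitals in Psmc6 hold one on the opposite strand and a CCGGAAG. Psmd4 holds a CCGGAAG and, on the opposite strand, a CCAAT and an interferon-stimulated response element core. Psme1 holds none of the 4 before its start. Its interferon-stimulated response element core begins at base 10, counted from the start base itself, on the opposite strand. Psmb5 and Psmb6, which share the first motif, differed in level as given above, and Psmc6 was lower than both in replicates 1 and 2 relative to control. A match here is a description of the letters and not a measured binding site.

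The ATPases of the 19S form the ring that unfolds substrates and opens the gate. Their median log2 change was -0.87, with adjusted p from 0.382 to 0.633 by limma. All 6 were below every control library in replicates 1 and 2, beside 63.2 and 67.6% of all features. Psmc3, the most abundant, was at 457, 626 and 322 TPM in control replicates 1, 2 and 3, against 179, 152 and 445 TPM in replicates 1, 2 and 3 of the radiotherapy group (log2 change -0.97, SE 0.47). Psmc2 was at 195, 384 and 148 TPM against 64.5, 55.7 and 232 TPM (-1.23, SE 0.62). Psmc6, the least abundant, was at 88.6, 118 and 96.1 TPM against 37.1, 31.8 and 126 TPM (-0.90, SE 0.53). Replicate 3 was inside the control range for Psmc2 and Psmc3 and above it for Psmc6. Relative to the control mean, the ATPases were at 26.6 to 49.0% in replicate 1, at 23.0 to 41.97% in replicate 2 and at 95.1 to 168% in replicate 3.

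The non-ATPase genes encode the lid, the ubiquitin receptors and 3 assembly chaperones that leave the finished particle. All 14 lay below every control library in replicates 1 and 2, beside 63.2 and 67.6% of all features. In replicate 3 none did, beside 30.9%, and 8 were above every control, beside 31.5%. The median log2 change was -0.65, with adjusted p from 0.354 to 0.846 by limma. Psmd4, a ubiquitin receptor, was at 640, 980 and 420 TPM in controls against 192, 161 and 919 TPM after radiotherapy (log2 change -1.07, SE 0.69). Psmd2, the scaffold of the base that docks ubiquitin shuttles, was at 248, 299 and 145 TPM against 72.8, 53.2 and 282 TPM (-1.09, SE 0.64). Psmd14, the deubiquitinase that removes the chain before degradation, was at 58.5, 88.5 and 50.9 TPM against 27.0, 29.6 and 109 TPM (-0.52, SE 0.56). Psmd14 was thus highest of all libraries in replicate 3, at 166% of the control mean, and Psmd2 and Psmd4 were inside the control range there.

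The lowest log2 change was that of a lid subunit. Psmd8 was at 630, 699 and 430 TPM in controls against 110, 123 and 866 TPM after radiotherapy, that is at 18.8, 20.9 and 148% of the control mean in replicates 1, 2 and 3. Its log2 change was -1.33 (SE 0.77), the lowest of the 38, and became -2.29 (SE 0.25, adjusted p = 0.0111 by limma) without replicate 3. Psmd11, named after its values were seen, was at 112, 153 and 83.8 TPM against 24.6, 21.9 and 208 TPM, the widest span between radiotherapy libraries relative to control, from 18.8 to 179%. Psmd3 was at 209, 304 and 131 TPM against 58.2, 48.4 and 236 TPM (-1.20, SE 0.64). Psmd6, with the lowest p of the 19S genes, was at 192, 224 and 150 TPM against 73.9, 72.2 and 175 TPM (-0.92, SE 0.41, adjusted p = 0.354 by limma). For Psmd6 replicate 3 lay between control replicates 1 and 3, in the middle of the range. The assembly chaperones were far less abundant than the subunits they help to join and had log2 changes nearer 0. Psmd9 was at 4.48, 5.31 and 3.88 TPM in controls against 3.58, 2.88 and 6.32 TPM after radiotherapy (log2 change -0.13, SE 0.31), and Psmd5 and Psmd10 had log2 changes of -0.21 and -0.39. On log2(TPM + 1) the changes of genes this low are understated.

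**Figure D3:**
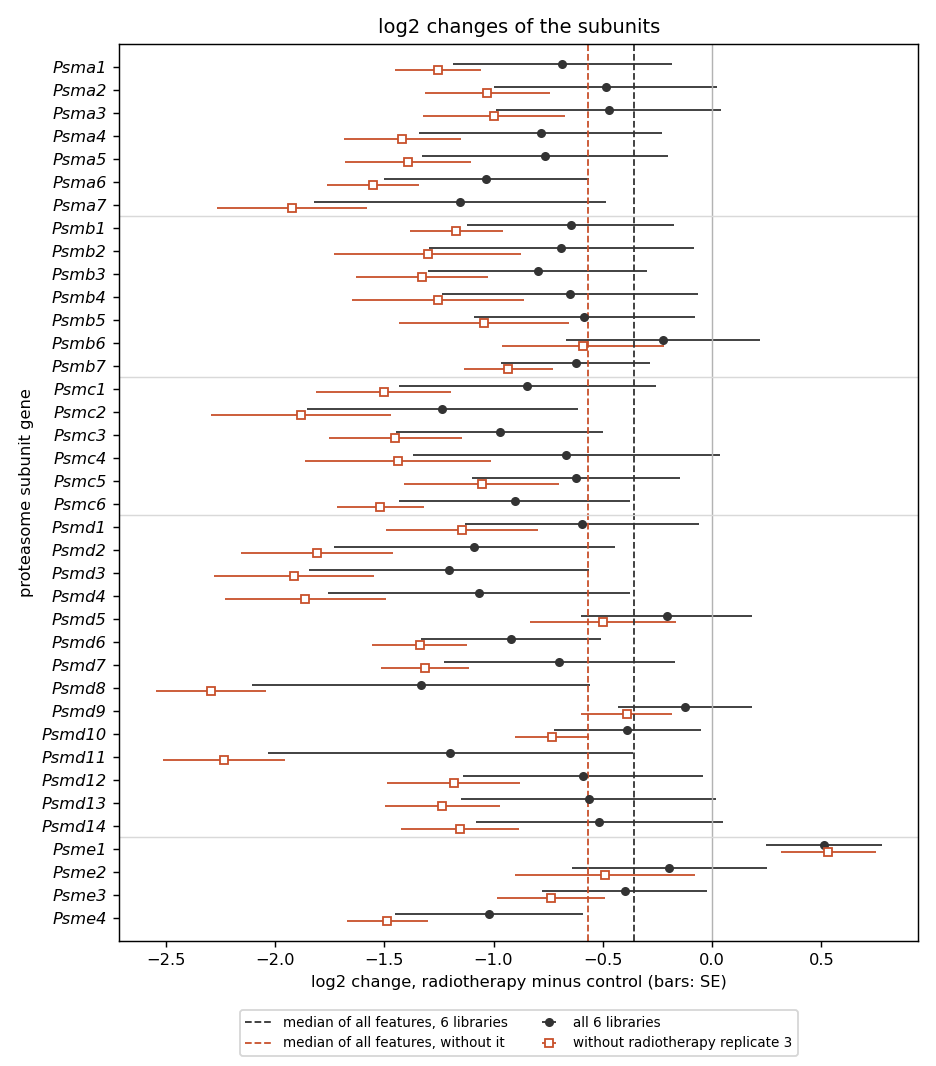
Log2 change, radiotherapy minus control, with its SE, for each tested subunit over all 6 libraries (circles) and without radiotherapy replicate 3 (squares). Dashed lines mark the median of all tested features in each case. All circles except that of Psme1 lie below 0, and the squares of Psmd8 and Psmd11 lie farthest left, at -2.29 and -2.23.

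Of the 4 activator genes, Psme1 and Psme2 encode the subunits of PA28, an activator of the 20S core that interferon-gamma induces and that serves antigen processing. Psme3 encodes the nuclear PA28 gamma, and Psme4 encodes PA200, a large single-chain activator. Psme1 was the one subunit above every control library in all 3 radiotherapy libraries, at 32.2, 28.2 and 21.8 TPM in controls against 41.6, 37.7 and 38.0 TPM after radiotherapy. Its means were 27.4 ± 5.28 and 39.1 ± 2.15 TPM (SD, n = 3 per group), a log2 change of 0.51 (SE 0.27) that did not pass (adjusted p = 0.398 by limma). It stayed above 0 in all the settings tried, from 0.36 to 0.93. Psme2 did not follow its partner, at 81.2, 49.8 and 29.8 TPM against 33.6, 36.4 and 65.3 TPM, with all 3 radiotherapy libraries inside the control range (log2 change -0.20, SE 0.45). Psme2b, a near-identical copy of Psme2, was listed at 0 to 0.64 TPM, and how reads were shared between them in the counting is not stated. Psme3 was at 31.0, 34.9 and 21.3 TPM against 17.1, 16.3 and 34.7 TPM (-0.40, SE 0.38). Psme4 was at 49.2, 38.3 and 41.9 TPM against 13.9, 15.5 and 40.3 TPM, with means of 43.2 ± 5.58 and 23.3 ± 14.8 TPM (log2 change -1.02, SE 0.43, adjusted p = 0.344 by limma). It had the smallest p of all 38. Psme3 and Psme4 were both below every control in replicates 1 and 2 and within the control range in replicate 3.

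The make-up of the subunit mRNA pool differed between the same libraries. The 19S genes summed to 1.05, 0.94 and 0.91 times the 20S genes in control replicates 1, 2 and 3 and to 0.73, 0.73 and 1.01 times in radiotherapy replicates 1, 2 and 3. Alpha genes made up 41.1, 39.3 and 42.6% of the 20S TPM in control and 33.1, 33.0 and 41.6% in radiotherapy muscle. In both, replicates 1 and 2 lay below every control and replicate 3 inside the control range, so the groups overlapped. Psme1 and Psme2 together stood at 3.00, 1.32 and 1.65% of the 20S TPM in control and at 4.07, 4.45 and 1.95% in radiotherapy muscle. Replicates 1 and 2 were thus above every control in the share of PA28. The 20S TPM that this share is taken of was 1847 and 1664 there, against 3118 to 5936 in control. A higher share is therefore not by itself a higher level of PA28 mRNA. In replicates 1 and 2 the level of Psme1 was above every control, and that of Psme2 was inside the control range. These ratios are taken within a library and do not depend on how the libraries were scaled to each other.

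**Figure D4:**
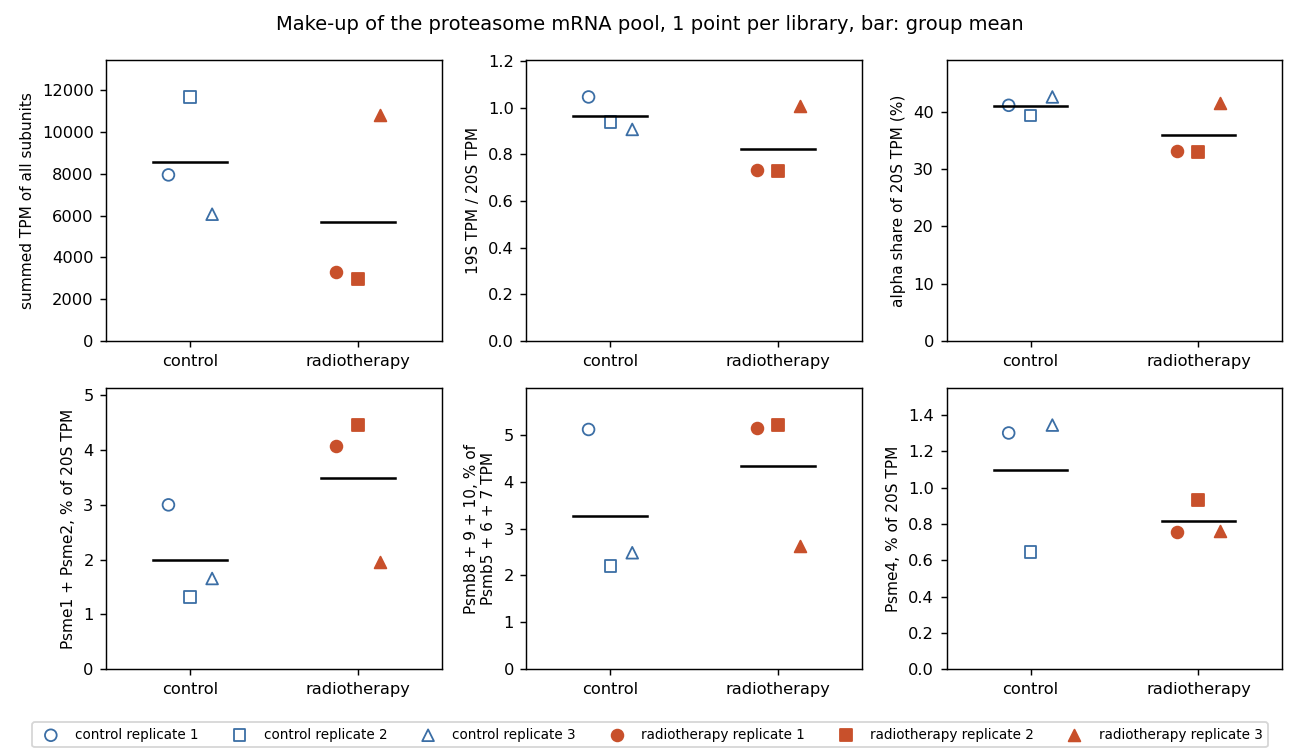
Summed TPM of all subunits and 5 ratios within the pool, 1 point per library with the group mean as a bar and all axes from 0. Radiotherapy replicates 1 and 2 lie below every control in the summed level, the ratio of 19S to 20S and the alpha share, and above every control in the share of Psme1 and Psme2, and replicate 3 lies inside the control range in these 4 panels.

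Immunoproteasome subunits, which replace the catalytic beta subunits under interferon, were listed at lower levels than the constitutive ones. Psmb8 was at 24.6, 16.1 and 4.71 TPM in controls against 7.91, 8.58 and 13.5 TPM after radiotherapy, and Psmb9 at 7.40, 2.40 and 1.25 TPM against 2.39, 2.64 and 1.83 TPM. Psmb10 was at 21.97, 17.9 and 14.9 TPM against 24.7, 20.6 and 21.1 TPM. The groups overlapped in all 3 genes and none passed (0 of 3, adjusted p from 0.597 to 0.767 by limma). Their sum equalled 5.12, 2.20 and 2.49% of that of Psmb5, Psmb6 and Psmb7 in control and 5.15, 5.21 and 2.63% in radiotherapy muscle. Within the radiotherapy group this share was thus lowest in replicate 3, but the immunoproteasome sum itself was not. That sum was 35.0, 31.8 and 36.4 TPM in radiotherapy replicates 1, 2 and 3. The sum of Psmb5, Psmb6 and Psmb7 was 679, 610 and 1387 TPM in the same libraries.

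Genes that build or hold back the proteasome had a median log2 change of -0.27, beside -0.68 for the subunits and -0.36 for all features. Of 7 assembly and inhibitor genes tested, 0 passed by limma. At an unadjusted p under 0.05 there were 0, beside 13.3% of all features as lower and 1.18% as higher. Separated between the groups were 0, beside 19.3% as lower and 1.73% as higher. Pomp, an assembly chaperone of the core, was at 180.1, 262 and 148 TPM in controls against 132, 130.4 and 273 TPM after radiotherapy (log2 change -0.19, SE 0.39). Akirin2, which carries proteasomes into the nucleus, was at 27.4, 40.3 and 36.3 TPM against 13.4, 13.2 and 37.6 TPM. Psmf1, a proteasome inhibitor, was at 9.95, 19.04 and 8.86 TPM against 6.08, 4.77 and 13.9 TPM. All 3 were below every control in replicates 1 and 2 and inside the control range or above it in replicate 3.

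Genes of proteins that sit on the particle or deliver substrates to it had a median log2 change of -0.90. Of 14 proteasome-bound and shuttle genes, 0 passed by limma, 3 had an unadjusted p under 0.05 as lower, beside 13.3% of all features, and 3 had all radiotherapy libraries below every control, beside 19.3%. Ubqln2, a ubiquitin shuttle, was at 7.23, 10.2 and 5.42 TPM in controls against 1.77, 1.76 and 5.31 TPM after radiotherapy. All radiotherapy libraries were thus below every control. Of 8 genes of the p97 segregase, which extracts proteins for degradation, 0 passed and 1 had an unadjusted p under 0.05 as lower, beside 13.3% of all features, with a median of -0.61. Its cofactor Faf1 was at 32.5, 36.1 and 24.2 TPM against 9.04, 9.67 and 26.2 TPM, and Nploc4 at 53.4, 50.7 and 30.9 TPM against 9.72, 7.18 and 66.9 TPM. Of 5 ubiquitin and E1 genes 0 passed, and 0 had an unadjusted p under 0.05, beside 13.3% of all features as lower and 1.18% as higher. Uba1, the ubiquitin-activating enzyme, was at 53.0, 80.3 and 38.2 TPM against 33.2, 29.0 and 56.0 TPM. Uba1 and Nploc4 were below every control in replicates 1 and 2, and in replicate 3 Uba1 was inside the control range and Nploc4 above it.

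Of 12 regulators of proteasome transcription tested, 12, 11 and 3 were below every control library in radiotherapy replicates 1, 2 and 3, beside 63.2, 67.6 and 30.9% of all features. In replicate 3, 5 were above every control library, beside 31.5% of all features, namely Mafg, Mafk, Maff, Syvn1 and Ddi2. Of these 12, 0 passed by limma, 5 had an unadjusted p under 0.05 as lower, beside 13.3% of all features, and 3 were lower in all 3 radiotherapy libraries, beside 19.3%. The median log2 change was -0.91. Nfe2l1, which drives proteasome genes when the particle is short, was at 216, 153 and 159 TPM in controls against 68.7, 65.1 and 165 TPM after radiotherapy (log2 change -0.93, SE 0.42, adjusted p = 0.354 by limma). Ngly1, the glycanase that processes NFE2L1, was at 19.9, 15.1 and 17.8 TPM against 4.99, 5.40 and 10.5 TPM, below every control in all 3. Foxo1, a transcription factor of the atrophy programme, was at 8.23, 7.67 and 8.28 TPM against 1.30, 2.32 and 3.96 TPM, likewise below every control. Unlike Ngly1 and Foxo1, Nfe2l1 was within the control range in replicate 3.

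Trim63 and Fbxo32, the muscle ubiquitin ligases, spanned a wider range over the radiotherapy libraries than any subunit. Of 7 atrophy ligases 0 passed by limma, 1 had an unadjusted p under 0.05 as lower, beside 13.3% of all features, and 3 were lower in all 3 radiotherapy libraries, beside 19.3%. Trim63 was at 901, 722 and 598 TPM in controls against 68.8, 122 and 1462 TPM after radiotherapy, and Fbxo32 at 202, 152 and 137 TPM against 9.89, 27.0 and 248 TPM. Both were above every control in replicate 3, as 16 of the 38 subunits were. Mdm2, the ligase of p53, was at 33.9, 27.5 and 26.6 TPM against 8.86, 7.26 and 16.7 TPM. Of 8 stress and chaperone genes 0 passed by limma, 2 had an unadjusted p under 0.05 as lower, beside 13.3% of all features, and both were lower in all 3 radiotherapy libraries, beside 19.3%. These were Hspa1a, at 5.28, 3.83 and 2.38 TPM against 1.01, 0.72 and 0.80 TPM, and Hspa1b, at 13.6, 10.3 and 5.89 TPM against 2.52, 1.85 and 2.65 TPM, near-identical genes whose reads the counting may have split. The other 6 were above every control library in replicate 3, beside 31.5% of all features. All 8 were below every control library in replicates 1 and 2, beside 63.2 and 67.6%.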

How the data were processed

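Total RNA of gastrocnemius was made into TruSeq libraries, as the labels' protocols state. The authors deposited TPM for 55995 features, with the same total in every library. HISAT2, StringTie and RSEM and the build mm9 are named in the submitters' processing notes, with no version or role. Annotation and strand setting are not given in the sources used here. Gene positions are not given, since the reference at hand is of another build. Promoter sequences and their positions are RefSeq's, on GRCm38.p6, matched by symbol.

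Groups came from the labels. Members, gene lists and settings were chosen with earlier results of these data known. The 11938 features averaging 1 TPM or more were tested two-sided on log2(TPM + 1) by limma 3.58.1 under R 4.3.3 (empirical Bayes with a trend, no covariates), adjusted by Benjamini-Hochberg over all of them, at a threshold of 0.05. An exact permutation p cannot be under 0.1 with 3 libraries a group. Such tests were run on the sums and ratios over the subunits and none reached that floor. These quantities are therefore given per library. Levels are compared between genes only in TPM, which is per length. Named were the catalytic, ubiquitin-handling and activator genes, the 3 members with the smallest p of each other part, the most and least abundant of each part, and of each pathway list the 2 with the smallest p with some fixed genes, of which some are not reported here. Of 68 pathway genes, 1 is not in the table under its name and 3 did not reach the filter. The table lists 5 named proteasome pseudogenes, at 0.07 TPM at most. On data simulated at the observed spread, limma recovered 1.42% of features changed by 1, 39.6% of those changed by 2 and 68.4% of those changed by 3 (log2). Same-numbered libraries of the groups did not deviate together (correlations -0.05, -0.11 and -0.20). As alternatives, 0.1 or 0.5 was added in place of 1, the minimum mean was set to 5 TPM or dropped, values were scaled by median-of-ratios, by quantiles or to the total without mitochondrial genes and the top 20 features, the trend was left out, replicate number was added as a block, and each library was dropped in turn. Figures were drawn with matplotlib 3.10.9.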

Additional observations from a re-analysis of the deposited data

How the results depend on the processing

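The number of subunits called lower was 0 in every setting tried except without radiotherapy replicate 3, where it was 25, and the number called higher was 0 in all of them. Without single libraries the count called lower thus ran from 0 to 25. Over the settings that keep all libraries the median log2 change ran from -0.68 to -0.25 for all subunits, and without single libraries from -1.28 to -0.39. That of the activators turned to 0.12 with median-of-ratios scaling and to 0.095 with quantile normalisation. The medians of the other 4 parts stayed below 0 in all settings. The replicate block left 0 subunits called, and a block changes no log2 change in this balanced design. In a fit with the replicate block the adjusted p of Nfe2l1, given as an example, was 0.6. Same-numbered libraries share only a number. Changes of sign occurred in 9 genes named above, none of them called. With median-of-ratios scaling the log2 changes of Pomp, Psmb6, Psmb8, Psmb9, Psmd5, Psmd9, Psme2 and Psme3 were 0.24, 0.20, 0.053, 0.039, 0.18, 0.21, 0.22 and 0.011. With quantile normalisation those of Pomp, Psmb6, Psmb8, Psmb9, Psmd5, Psmd9 and Psme2 were 0.22, 0.032, 0.074, 0.076, 0.23, 0.23 and 0.19. Rescaling without mitochondrial and the 20 most abundant features gave 0.017 for Pomp, 0.037 for Psmd9 and 0.0078 for Psme2. Without single libraries the log2 change ran from -0.54 to 0.036 for Pomp, from -0.996 to 0.012 for Psma3, from -0.50 to 0.098 for Psmd5, from -0.59 to 0.11 for Psmb6, from -0.96 to 0.12 for Psmb8, from -0.71 to 0.24 for Psmb9, from -0.39 to 0.067 for Psmd9 and from -0.55 to 0.16 for Psme2. The causes were not tested. Of the named genes, 33 passed the threshold without radiotherapy replicate 3 and none in another setting. No depth is known, so no detection limit can be given.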
